A study of Mus musculus with 8 samples.

Results

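Cyclic nucleotide phosphodiesterases (PDEs) were examined in nuclei of the adult mouse optic nerve (ON). The 10 genes are a named set, Pde1a, Pde1c, Pde3a, Pde3b, Pde4b, Pde4d, Pde7b, Pde8a, Pde8b and Pde10a, out of 33696 genes counted, and they were chosen by symbol and not by a threshold on a value. The choice was made with earlier results of these data known, so the calls below are no independent test of those results. Their levels are described across cell types defined by marker genes, along the oligodendrocyte (OL) lineage and between genotypes.

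PDEs break down the second messengers cAMP and cGMP and so end the signals that cyclases start and that protein kinase A, protein kinase G and the Epac exchange factors read out. The families differ in what they cleave and in what controls them. PDE4, PDE7 and PDE8 enzymes cleave cAMP, PDE1 enzymes cleave both messengers and need calcium and calmodulin, PDE3 enzymes cleave cAMP and are inhibited by cGMP, and PDE10A cleaves both. In the OL lineage, cAMP signalling is known as a regulator of the step from proliferating precursor to myelinating cell.

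Single-nucleus RNA sequencing (snRNA-seq, which counts RNA molecules in isolated nuclei by their unique molecular identifiers, UMIs) was performed on 8 libraries of female mice at postnatal day 120, each made from 6 pooled ONs. The 4 control libraries (1 to 4) are Piezo2f/f, in which both copies of the mechanosensitive channel gene Piezo2 carry loxP sites and no Cre is present. The 4 libraries labelled cKO (10 to 13) are Olig2-cre;Piezo2f/f, with Cre inserted into Olig2, a transcription factor gene of the whole OL lineage. Those mice therefore also carry only one intact Olig2 copy, and effects of Cre, of recombined Piezo2 and of the lost Olig2 copy cannot be told apart. Since each library is a pool, p-values measure the spread between pools.

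The libraries held 39628926 to 56541132 UMIs, and 3426 to 6189 nuclei per library were kept (16662 control nuclei and 20396 from the libraries labelled cKO), with median depths of 2370 to 3323.5 UMIs per nucleus. Any pair of libraries shared at most 21 barcodes of called nuclei, or 0.403% of the smaller library. Clusters were named from marker lists without using the PDE genes, so that each name below stands for nuclei like that type. This gave 7943 control and 11161 cKO nuclei for OLs, 329 and 434 for OL precursor cells (OPCs), 85 and 82 for committed OPCs, 3956 and 4092 for astrocytes, 1597 and 1809 for fibroblasts, 603 and 764 for myeloid cells, 182 and 126 for neurons, 114 and 161 for endothelial cells, 68 and 52 for T cells and 32 and 29 for mural cells. Piezo2 in OLs was 504, 391, 407 and 488 CPM (a gene's UMIs per 1000000 UMIs of the summed nuclei) in control libraries 1 to 4 and 531, 536, 572 and 521 CPM in libraries 10 to 13. The difference did not pass the test (log2 difference 0.25 ± 0.11 SE, adjusted p = 0.54, edgeR). The counts cover the whole gene and do not set the floxed part apart, so they are no check of the labels. Olig2 in OLs was 23.7, 31.2, 40.8 and 28.0 CPM in control libraries 1 to 4 and 45.0, 52.2, 48.2 and 43.4 CPM in libraries 10 to 13, higher in all 4 libraries labelled cKO than in any control library (log2 difference 0.59 ± 0.15 SE, adjusted p = 0.23, edgeR).

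The first comparison asked in which nuclei of the dissected nerve each PDE is expressed, using summed counts of the control libraries. Pde4b and Pde8a were highest in OLs, Pde1a in fibroblasts, Pde3b in myeloid cells and Pde10a in neurons, while Pde4d and Pde7b were high in OPCs and low in OLs. A gene was called when edgeR's quasi-likelihood test gave an adjusted p under 0.05 and a log2 difference past 0.5 between a cell type and the average of the other types tested. Pde3a, Pde8b and Pde10a had no UMI in a tested type of the control libraries (myeloid cells for Pde3a, T cells for Pde8b and Pde10a), so their difference from an average of types depends on how a 0 is treated, and only their levels are given. The ON carries axons whose cell bodies lie elsewhere, and the study regards its neuronal nuclei as probable carry-over from neighbouring brain, so levels in neurons are those of nuclei in the preparation and are not given as a site in the nerve. Control library 3 held 95 of the 182 control neurons. In nuclei of a whole tissue, fewer UMIs of a gene can come from fewer expressing nuclei or from less RNA in each, and sums over nuclei cannot tell these apart.

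For the other 7 genes, 44 of 56 tests were called, 23 higher and 21 lower. Of these genes, Pde1a, Pde1c and Pde7b held only 2 UMIs each in the 61 control T cell nuclei used, with a lowest library at 0 CPM. The size of their differences from an average that includes T cells therefore also depends in part on how a 0 is treated. In OLs 3 of 7 were higher (Pde1c, Pde4b, Pde8a) and 4 lower (Pde1a, Pde3b, Pde4d, Pde7b), where 42.3% of all 12080 genes tested were called. In OPCs 6 were higher and none lower against 27.3% of all genes, with Pde8a the gene not called. Neurons had 6 higher and 1 lower against 42.2%, astrocytes 1 higher and 4 lower against 38.4%, and fibroblasts 2 higher and 3 lower against 32%. For myeloid cells the counts were 1 higher and 5 lower against 32.2% of all genes, for endothelial cells 3 higher and 1 lower against 23.5%, and for T cells 1 higher and 3 lower against 13.2%. Leaving out control library 4 removed the calls for Pde1a and Pde1c in astrocytes (for Pde1c log2 -1.02, adjusted p = 1.0, edgeR) and in myeloid cells. Pde1c had 0 UMIs in the T cell sums of control libraries 2 and 3, and library 1 had under 10 T cell nuclei. Without library 4 its difference therefore depends on how a 0 is treated. Its astrocyte libraries ranged from 12.8 to 22.5 CPM, below all OL libraries (207 to 244 CPM). The call for Pde4b in neurons (log2 0.61 with all libraries) was lost without control library 3 (log2 0.51) or 4 (log2 0.53), and that of Pde1a in myeloid cells without library 3. With nuclei thinned to 1000 UMIs, the calls for Pde3b in OPCs, Pde7b in endothelial cells and Pde4b and Pde8a in neurons were lost. Scaling by library totals lost those of Pde4b in T cells and neurons and of Pde7b in T cells. Subtraction of empty-droplet RNA lost those of Pde1a in astrocytes and myeloid cells.

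**Figure D1:**
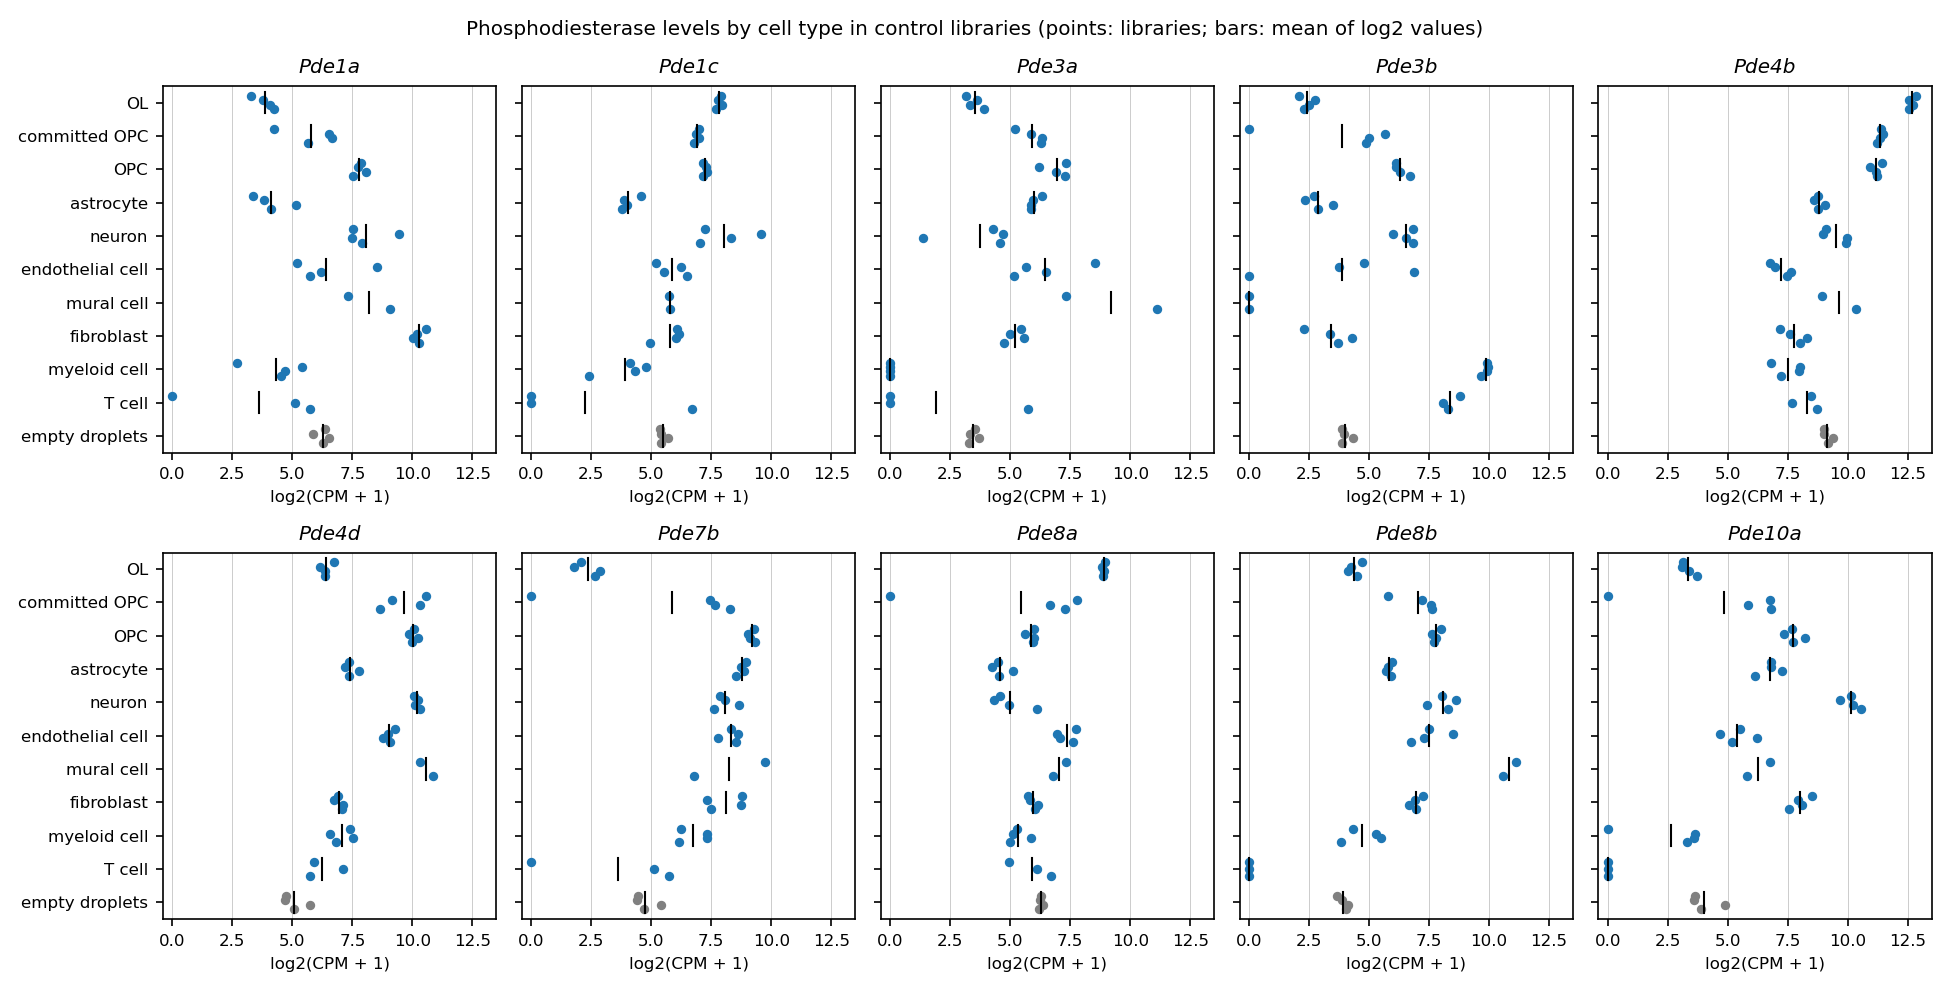
Levels of the 10 PDE genes by cell type in the control libraries, as log2(CPM + 1), with 1 point per library, a bar at the mean of the log2 values and empty droplets in grey. Pde4b and Pde8a have their highest points in OLs, Pde3b in myeloid cells, Pde1a in fibroblasts and Pde10a in neurons, and mural cells have only 2 libraries with at least 10 nuclei.

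Among the cAMP-specific enzymes, Pde4b (ENSMUSG00000028525, chr4:101944740-102465716, plus strand, GRCm39) encodes a member of the PDE4 family, which is the target of rolipram. Its level in OLs was 7395, 6027, 6736 and 6001 CPM in control libraries 1 to 4 (6539.8 ± 664 CPM, SD, n = 4). All 4 values lay above every value of committed OPCs (2605 ± 197 CPM, SD, n = 4) and OPCs (2335 ± 322 CPM, SD, n = 4), which overlapped each other. The log2 difference between OLs and the average of the other types was 4.44 ± 0.15 (SE; adjusted p = 2.5e-27, edgeR). Endothelial cells had the lowest mean, 151 ± 43.1 CPM (SD, n = 4). Empty droplets, whose RNA was released from broken cells, held 566 ± 74.8 CPM (SD, n = 4) of Pde4b, above the means of astrocytes (442 CPM), fibroblasts (225 CPM) and myeloid cells (191 CPM). The mean levels in those types were therefore not above those of droplets without a nucleus. Empty-droplet RNA made up an estimated share of only 0.096 to 0.269 of the UMIs in these types, so the whole droplet level is not their background.

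Pde4d (ENSMUSG00000021699, chr13:108586482-110092497, plus strand), the other PDE4 gene of the set, followed another order. It was 1163 ± 92.2 CPM in neurons, 1045 ± 119.8 CPM in OPCs and 522 ± 70.7 CPM in endothelial cells, against 84.1 ± 14.5 CPM in OLs (SD, n = 4 each). Committed OPCs, left to the lineage comparison, held 937 ± 542 CPM (SD, n = 4) and overlapped the OPCs. Values in OLs of control libraries 1 to 4 were 104, 69.9, 81.0 and 81.1 CPM, all below those of OPCs (1074, 914, 1196 and 998 CPM). The differences from the average of the other types were 2.67 ± 0.13 in neurons, 2.65 ± 0.13 in OPCs and -1.36 ± 0.18 in OLs on the log2 scale (SE; adjusted p at most 1.3e-08, edgeR). The 2 mural cell sums with at least 10 nuclei held 1555 CPM on average, and overlapped the neurons.

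Pde7b (ENSMUSG00000019990, chr10:20273567-20600886, minus strand) encodes a cAMP-specific enzyme of high affinity. It was 611, 521, 549 and 634 CPM in OPCs of control libraries 1 to 4, and 489, 424, 459 and 367 CPM in astrocytes, which lay below all of the OPC values. OLs held 3.23, 2.40, 6.34 and 5.27 CPM (99 UMIs in 7943 nuclei), below the 26.8 ± 9.98 CPM of empty droplets (SD, n = 4). OLs overlapped only T cells and committed OPCs, of which at least 1 library held no Pde7b UMI. On the log2 scale OPCs stood 2.72 ± 0.22 and astrocytes 2.12 ± 0.21 above the average of the other types, while OLs differed from it by -5.22 ± 0.85 (SE; adjusted p at most 1.4e-06, edgeR). The droplet level times the estimated share of such RNA was 2.95 to 6.80 CPM in control OLs. The size of the OL difference is therefore not fixed by these data.

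Pde8a (ENSMUSG00000025584, chr7:80862941-80984284, plus strand) and Pde8b (ENSMUSG00000021684, chr13:95160559-95386844, minus strand) encode cAMP-specific enzymes that are not blocked by the common inhibitor IBMX. Pde8a was 489.8, 456, 481 and 463 CPM in OLs of control libraries 1 to 4, above all values of the next type, endothelial cells (166 ± 43.7 CPM, SD, n = 4). Its difference in OLs was a log2 of 3.56 ± 0.12 (SE; adjusted p = 8.9e-27, edgeR), and that in endothelial cells was 1.31 ± 0.25 (adjusted p = 4.8e-05). Pde8b showed the other order, with 219 ± 24.9 CPM in OPCs and 20.1 ± 3.65 CPM in OLs (SD, n = 4 each). Its highest level was in mural cells (1868 CPM over 2 libraries, 70 UMIs), which did not overlap the next type, neurons at 283 ± 92.0 CPM (SD, n = 4).

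Of the calcium-dependent enzymes, Pde1a (ENSMUSG00000059173, chr2:79664364-79959802, minus strand) was highest in fibroblasts. Fibroblasts of control libraries 1 to 4 held 1534, 1182, 1029 and 1231 CPM, apart from every other type, and the log2 difference was 4.59 ± 0.22 (SE; adjusted p = 9.8e-22, edgeR). OLs held 13.7 ± 3.91 CPM (SD, n = 4), less than empty droplets (76.4 ± 13.8 CPM, SD, n = 4). Pde1c (ENSMUSG00000004347, chr6:56046784-56629472, minus strand) had its highest mean in neurons, but the neuron libraries ranged from 131 to 759 CPM and overlapped the OLs. In OLs it was 239.6, 216, 244 and 207 CPM, above every OPC value (149 ± 10.2 CPM, SD, n = 4), with a log2 difference of 2.52 ± 0.22 from the average of the other types (SE; adjusted p = 1.6e-13, edgeR).

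The PDE3 genes were high in different cells. Pde3b (ENSMUSG00000030671, chr7:114013685-114138486, plus strand), the PDE3 form through which insulin lowers cAMP in fat cells, was 956, 977, 974 and 806 CPM in myeloid cells of control libraries 1 to 4. T cells followed with 341 ± 89.4 CPM (SD, n = 3), and both lay apart from all other types. The log2 difference in myeloid cells was 4.78 ± 0.15 (SE; adjusted p = 2.9e-28, edgeR). In OLs Pde3b was 4.37 ± 1.05 CPM (SD, n = 4), less than in empty droplets (15.3 ± 2.57 CPM, SD, n = 4).

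Pde3a (ENSMUSG00000041741, chr6:141194888-141453174, plus strand), the PDE3 form of heart, platelets and vascular smooth muscle, was 159 and 2221 CPM in mural cells of the 2 libraries with at least 10 such nuclei. In endothelial cells Pde3a averaged 135 CPM, with control libraries from 35.2 to 364 CPM. It was 126 ± 39.8 CPM in OPCs and 63.4 ± 9.94 CPM in astrocytes (SD, n = 4 each). OLs held 8.0, 11.3, 9.11 and 14.2 CPM, which overlapped empty droplets (10.6, 9.05, 12.1 and 8.70 CPM), and myeloid cells had 0 Pde3a UMIs in 603 control nuclei. The droplet level times the estimated share of such RNA in OLs was 1.52 to 1.99 CPM, below the OL level of each library.

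Pde10a (ENSMUSG00000023868, chr17:8744204-9205482, plus strand), the enzyme best known from striatal neurons, was 1126, 822, 1168 and 1488 CPM in neurons of control libraries 1 to 4. No other type reached that range. Fibroblasts followed with 262 ± 71.4 CPM and OPCs with 215 ± 55.6 CPM (SD, n = 4 each), which overlapped, and astrocytes held 110.1 ± 33.7 CPM. In OLs Pde10a was 9.17 ± 2.13 CPM (SD, n = 4), beside 16.1 ± 8.46 CPM in empty droplets. Times the estimated share of such RNA in OLs, the droplet level was 1.60 to 4.70 CPM, below the OL level of each library.

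For each member, the 3 genes with the most similar pattern over 9 cell types were found by Pearson's r of mean log2(CPM + 1) in control libraries, among 16058 genes of at least 10 CPM in a type. The types share libraries and depth, and the values are a description. For Pde4b these were Pcdh9, Slain1os and Lrrn1 (r from 0.955 to 0.966), for Pde4d Ndst3, Ptprr and Ica1 (r from 0.959 to 0.967), for Pde7b Klf12, Gm15345 and 4930517O19Rik (r from 0.929 to 0.948), for Pde8a Klhl4, Shroom1 and Rasl12 (r from 0.908 to 0.939) and for Pde8b Tm9sf4, Pcdh7 and Zfp938 (r from 0.966 to 0.973). For Pde1a they were Rev1, 4930590L20Rik and Unc13c (r from 0.949 to 0.952), for Pde1c Nbea, Phactr1 and Sh3gl3 (r from 0.942 to 0.944), for Pde3a Axin2, Tril and Pdlim3 (r from 0.911 to 0.963), for Pde3b Insyn2b, Dock2 and Orai2 (r from 0.963 to 0.974) and for Pde10a St7, Slc2a13 and Mdga1 (r from 0.968 to 0.979).

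The second comparison followed the OL lineage from OPCs over committed OPCs (cells leaving the cell cycle to become OLs) to OLs, with all 8 libraries and genotype as a term. Between OPCs and OLs all 10 members changed, 3 upwards (Pde1c, Pde4b, Pde8a) and 7 downwards (Pde1a, Pde3a, Pde3b, Pde4d, Pde7b, Pde8b, Pde10a), in a comparison in which 50.3% of 7383 genes were called. The median log2 difference of the members was -3.51, beside 0.04 for all genes tested. From OPCs to committed OPCs 7 members fell and none rose, against 27.1% of all genes called. From committed OPCs to OLs 3 rose and 7 fell against 44.6% of all genes.

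Promoters are shown for Pde4b and Pde8a, which rose along the lineage, and for Pde7b, which fell. RefSeq promoter sequences (table build GRCm38.p6), running from 250 bases before to 50 bases after a transcription start, were at hand for 8 of the 10 members, with 21 starts, and each matched 1 place in GRCm39, whose coordinates are given. They are written 5′ to 3′ on the strand of the gene, and capitals mark TGACG or its reverse complement CGTCA, the core of the cAMP response element to which CREB binds. That core stood in 4 of the 21 promoters, and in 20.8% of 32851 promoters of the same length (both strands). The whole element TGACGTCA, which contains the core on both strands, stood in 0 of the 21 and in 1.79% of all.
Pde4b, chr4:102278502-102278801, plus strand: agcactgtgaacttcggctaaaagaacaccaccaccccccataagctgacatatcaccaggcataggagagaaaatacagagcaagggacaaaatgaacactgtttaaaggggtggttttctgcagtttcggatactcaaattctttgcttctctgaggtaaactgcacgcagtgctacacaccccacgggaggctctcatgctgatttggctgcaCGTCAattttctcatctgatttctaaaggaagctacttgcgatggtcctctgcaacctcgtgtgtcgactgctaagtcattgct
Pde8a, chr7:80862763-80863062, plus strand: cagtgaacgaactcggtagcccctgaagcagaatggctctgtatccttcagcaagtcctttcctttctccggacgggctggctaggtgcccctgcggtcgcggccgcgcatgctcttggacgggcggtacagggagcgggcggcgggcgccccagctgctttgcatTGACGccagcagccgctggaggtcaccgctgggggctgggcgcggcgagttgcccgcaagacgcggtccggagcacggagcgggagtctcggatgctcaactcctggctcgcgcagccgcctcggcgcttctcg
Pde7b, chr10:20424025-20424324, minus strand: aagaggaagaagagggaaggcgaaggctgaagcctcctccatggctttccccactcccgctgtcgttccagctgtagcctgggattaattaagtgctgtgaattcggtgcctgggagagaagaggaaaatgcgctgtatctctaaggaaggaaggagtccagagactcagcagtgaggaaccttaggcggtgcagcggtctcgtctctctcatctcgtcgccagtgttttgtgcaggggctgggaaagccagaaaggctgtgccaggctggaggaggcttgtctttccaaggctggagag

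The Pde4b window is the first of 4 listed for that gene, of which the other 3 hold no core, and its core begins at position -34 from the start. In Pde8a the core begins at position -84, within a window of 68.7% G and C. The Pde7b window, 55.7% G and C, holds no core. In each of these windows the start base lies in an annotated exon (GENCODE vM39). The 3 windows of Pde1c, the other rising gene, are not printed and hold no core, while 1 window each of Pde1a and Pde8b, which fell, holds it. A match is a run of letters and says nothing on binding.

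Of the rising genes, Pde4b was not called between OPCs and committed OPCs (log2 difference 0.04 ± 0.12, adjusted p = 0.88) and was higher by a log2 of 1.41 ± 0.12 in OLs than in committed OPCs (SE; adjusted p = 2.3e-12, edgeR). Over the 8 libraries it ranged from 1948 to 2737 CPM in OPCs and from 5169.8 to 7395 CPM in OLs, with no overlap. Pde8a rose from committed OPCs to OLs by a log2 of 1.91 ± 0.20 (adjusted p = 3.9e-10, edgeR) and ranged from 47.4 to 107 CPM in OPCs and from 412 to 489.8 CPM in OLs. Pde1c changed direction on the way. Its log2 difference was -0.75 ± 0.17 from OPCs to committed OPCs (adjusted p = 0.00088) and 1.29 ± 0.16 from there to OLs (adjusted p = 8.3e-09, edgeR), so that OLs stood above OPCs by 0.54 ± 0.12 (adjusted p = 0.00016). The first step pools genotypes that differed in size. Means in OPCs and committed OPCs were 149 and 119 CPM in control libraries and 140 and 58.3 CPM in those labelled cKO. With every nucleus thinned to 1000 UMIs, the first step of Pde1c was a log2 of -0.19 (adjusted p = 0.74, edgeR) and was not called.

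Among the falling genes, Pde7b changed by a log2 of -1.93 ± 0.24 from OPCs to committed OPCs and of -5.04 ± 0.30 from there to OLs (SE; adjusted p = 5.4e-08 and 2.9e-16, edgeR). Its libraries ran from 435 to 634 CPM in OPCs and from 2.40 to 6.56 CPM in OLs. Free RNA alone, the empty-droplet level times its estimated share, came to 2.00 to 6.80 CPM of Pde7b in OLs. For Pde1a it came to 9.87 to 19.7 CPM, beside a level of 8.51 to 18.3 CPM, and for Pde3b to 1.60 to 3.13 CPM, beside 2.28 to 5.66 CPM. After its subtraction the log2 difference between OPCs and OLs went from -6.97 to -9.30 for Pde7b, from -4.11 to -7.72 for Pde1a and from -4.38 to -5.52 for Pde3b (edgeR), and the size of these falls is not fixed by these data. Pde10a and Pde1a fell at both steps, with log2 differences of -1.82 ± 0.25 and -1.66 ± 0.25 at the first and of -3.06 ± 0.32 and -2.45 ± 0.30 at the second (adjusted p at most 1.7e-06, edgeR). Pde4d took another course, since it was not called between OPCs and committed OPCs (log2 -0.19 ± 0.18, adjusted p = 0.49) and changed by -3.27 ± 0.19 to OLs (adjusted p = 1.1e-16, edgeR). Committed OPCs of the control libraries varied widely for it, with 1524, 563, 1263 and 399 CPM.

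Pde8b fell mainly at the second step as well (log2 -3.01 ± 0.19, adjusted p = 9.4e-16, edgeR), after -0.54 ± 0.18 at the first (adjusted p = 0.017), and Pde3b changed by -1.30 ± 0.26 and -3.08 ± 0.32 (adjusted p = 0.00014 and 3.8e-10). Pde3a changed by -0.99 ± 0.37 and -1.54 ± 0.40 (adjusted p = 0.042 and 0.0016, edgeR). The first steps of Pde3a and Pde8b were not called without control library 1 (adjusted p = 0.10 and 0.054), that of Pde3a also without library 11 or 12 labelled cKO (adjusted p = 0.088 and 0.075) and that of Pde8b without library 13 (adjusted p = 0.058). The first step of Pde3a was likewise not called after subtraction of empty-droplet RNA (log2 -0.98, adjusted p = 0.074, edgeR). Scaled by library totals, neither was called, Pde3a for its p (0.057 adjusted) and Pde8b for its size (log2 -0.49), and Pde8b was not called after thinning (adjusted p = 0.33). Committed OPCs were few, 12 to 32 nuclei per library, and their cluster was raised in all 6 committed OPC markers and all 5 OPC markers, with 2.31 times the UMIs of the median nucleus of its libraries. It was also raised in 3 astrocyte, 2 endothelial and 2 mural cell markers. The estimated share of free RNA ran from 0.068 to 0.379 in committed OPC sums and from 0.091 to 0.179 in OPC sums. The part of such RNA in these steps was not tested. With every nucleus thinned to 1000 UMIs, 3 members were called from OPCs to committed OPCs (Pde1a, Pde7b, Pde10a) in place of 7, and Pde3a and Pde3b no longer passed the filter on low counts. The 27.1% of all genes given for this step is from the fit without thinning.

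**Figure D2:**
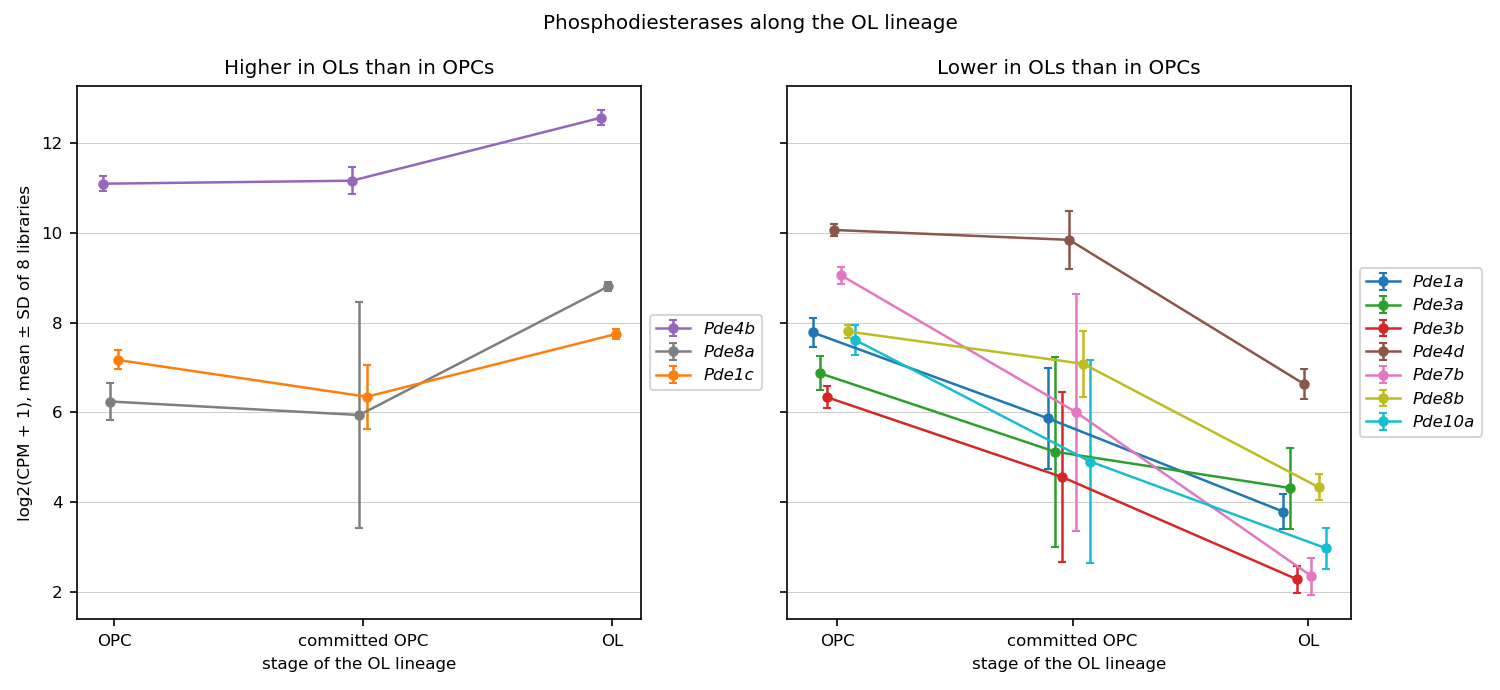
Levels of the 10 PDE genes in OPCs, committed OPCs and OLs as log2(CPM + 1), mean ± SD of 8 libraries (control and cKO together), with the genes higher in OLs than in OPCs on the left and the lower ones on the right. Pde4b, Pde8a and Pde1c end above their OPC level and the other 7 end below it. Pde3a in OLs differs between the genotypes pooled here.

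The rest of the pathway was read from a list of 63 further genes, made of other PDEs, adenylyl and guanylyl cyclases, protein kinases A and G with inhibitors, Epac factors, anchoring proteins and the CREB family. Between OPCs and OLs 36 were tested, of which 4 were higher and 15 lower, beside 50.3% of all genes called, with a median log2 difference of -0.32 beside 0.04 for all genes. Both protein kinase G genes were lower in OLs, Prkg1 by a log2 of -6.53 ± 0.18 and Prkg2 by -7.78 ± 0.22 (SE; adjusted p = 3.2e-26 and 4.8e-26, edgeR). The difference of Gucy1a2, a subunit of the soluble guanylyl cyclase that makes cGMP, was -6.23 ± 0.19 (adjusted p = 3.2e-25). A further subunit of it, Gucy1a1, differed by -3.20, Akap13, which anchors protein kinase A, by -2.41, the Epac gene Rapgef3 by -3.01, the calcium-stimulated adenylyl cyclase gene Adcy8 by -5.75 and the protein kinase A inhibitor gene Pkia by -2.04 (adjusted p at most 4.6e-14, edgeR). The 4 genes higher in OLs, named after their values were seen, were Prkacb, a catalytic subunit of protein kinase A (log2 1.48), the inhibitor Pkig (1.16), Akap11 (0.62) and the adenylyl cyclase gene Adcy5 (0.55).

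From OPCs to committed OPCs 3 of these 36 genes were higher and 9 lower, beside 27.1% of all genes called (median log2 -0.15, beside 0.02 for all genes). From committed OPCs to OLs 4 were higher and 16 lower, beside 44.6% of all genes called (median -0.43, beside 0.01). Pde9a, a cGMP-specific PDE, rose by a log2 of 2.88 ± 0.57 in committed OPCs (adjusted p = 0.00014) and changed by -7.58 ± 0.59 from there to OLs (adjusted p = 3.7e-13, edgeR). In the comparison of cell types, 11 of 52 tested list genes were higher in OLs and 10 lower, where 42.3% of all genes were called (median -0.19, beside 0.17 for all genes). In OPCs 17 were higher and 6 lower, where 27.3% of all genes were called (median 0.35, beside 0.07). The anchoring protein gene Akap6 had the smallest p in OLs (log2 3.13, adjusted p = 6.9e-22, edgeR), and Adcy10, the bicarbonate-sensitive soluble adenylyl cyclase, was also higher (4.97, adjusted p = 3.3e-17).

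The third comparison split the OLs of each control library into equal parts by a maturation score, the level of Trf, Apod and Klk6 minus that of Mbp, Mog and Mal, and set the highest part against the lowest. No member was called by edgeR (0 of 8 tested, 3 with an unadjusted p under 0.05; 0 by DESeq2), in a comparison in which 1.52% of 11381 genes were. Pde8a was 563, 535, 598 and 525 CPM in the low parts of control libraries 1 to 4 and 435, 411, 405 and 393 CPM in the high parts, without overlap. Its log2 difference of -0.44 ± 0.10 passed the p threshold (adjusted p = 0.037, edgeR) but not that of size. Pde4d was 94.4, 57.9, 57.9 and 55.1 CPM in the low parts and 115, 85.7, 103 and 116 CPM in the high parts, higher in 4 of 4 libraries (log2 0.64 ± 0.18, adjusted p = 0.13, edgeR). The estimated share of free RNA was also higher in the high part in 4 of 4 libraries, at 14.9% to 19.9% against 14.0% to 18.1%, and Apod, one of the score genes, stood at 6304 CPM in empty droplets and 1839 CPM in OLs. After subtraction of empty-droplet RNA the log2 difference was -0.43 (adjusted p = 0.025) for Pde8a and 0.71 (adjusted p = 0.16) for Pde4d (edgeR). The parts themselves were formed from counts without subtraction, so this fit cannot show what free RNA did to the sorting of nuclei into parts.

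Since both parts come from the same pooled mice, the library was also fitted as a replicate block. Pde4d was then called (log2 0.62 ± 0.09, adjusted p = 2.0e-07, edgeR), and Pde8a was not, for its size (-0.45 ± 0.05, adjusted p = 4.7e-12), in a fit in which 3.71% of 12147 genes were called. Pde1c and Pde4b passed the p threshold with the block as well, but not that of size. Pde4d was also called without control library 1. Pde4b moved from 6956 ± 789.8 CPM to 6179 ± 506 CPM (SD, n = 4), a log2 difference of -0.18 ± 0.11 (adjusted p = 0.85, edgeR), and Pde1c from 248 ± 32.1 CPM to 204 ± 10.1 CPM, a log2 difference of -0.28 ± 0.12 (adjusted p = 0.45). In the 63-gene list 1 of 39 tested genes was higher in the high part, Pkia (log2 1.06, adjusted p = 0.041), and 1 was lower, Rapgef3 (-0.89, adjusted p = 0.027, edgeR).

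**Figure D3:**
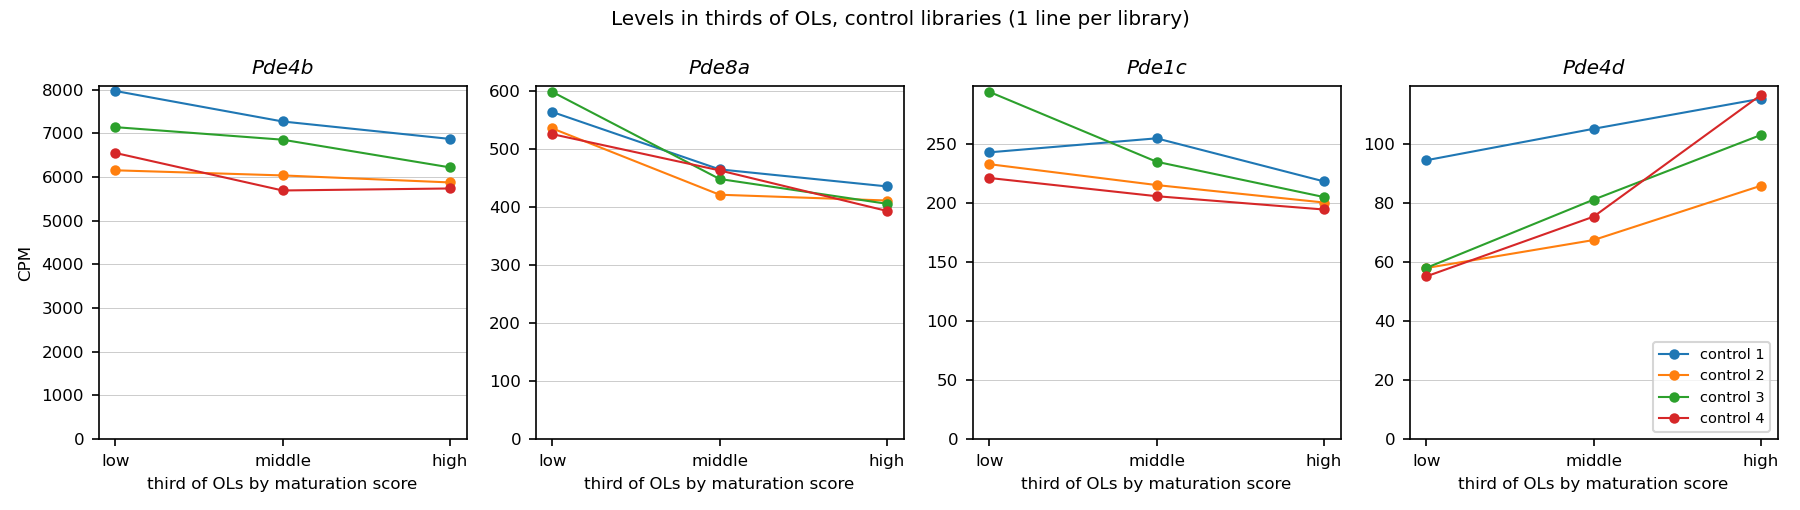
Levels of Pde4b, Pde8a, Pde1c and Pde4d in CPM in the low, middle and high parts of OLs by maturation score, with 1 line for each of the 4 control libraries and axes from 0. Pde8a is lower in the high than in the low part in 4 of 4 libraries (555 and 411 CPM on average) and Pde4d higher in 4 of 4 (66.3 and 105 CPM).

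The OL clusters, which were formed without the members, also differed in PDE levels. Over 16 OL clusters of 403 to 2381 nuclei, control nuclei held 4540.0 to 8919.7 CPM of Pde4b, 271 to 703 CPM of Pde8a, 128 to 322 CPM of Pde1c and 42.3 to 170.2 CPM of Pde4d. Pde3a stayed between 3.15 and 21.9 CPM. These sums pool libraries and carry no test.

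The fourth comparison asked which members differ between genotypes within a cell type. Pde3a was higher in OLs of the libraries labelled cKO, and no other member was called in any of the 8 types tested. Pde3a in OLs was 8.0, 11.3, 9.11 and 14.2 CPM in control libraries 1 to 4 (10.7 ± 2.74 CPM, SD, n = 4) and 45.1, 30.03, 31.0 and 30.8 CPM in libraries 10 to 13 (34.2 ± 7.27 CPM, SD, n = 4). The groups did not overlap, and library 10 lay above the other three. The log2 difference was 1.68 ± 0.18 (SE; adjusted p = 0.0017, edgeR). It was 1 of 12 genes called in OLs, or 0.0829% of the 14473 tested.

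The call for Pde3a held with each library left out (log2 1.53 to 1.83, adjusted p at most 0.015, edgeR), with DESeq2 (log2 1.67, adjusted p = 1.4e-13) and after subtraction of empty-droplet RNA (1.88, adjusted p = 0.022). Empty droplets held 10.1 ± 1.58 CPM of Pde3a in the control libraries and 10.2 ± 0.208 CPM in those labelled cKO (SD, n = 4 each). The free RNA share estimated in OL sums was 14.3% to 18.4% in control libraries and 14.3% to 20.3% in those labelled cKO. Every one of the 16 OL clusters had more Pde3a in cKO nuclei (12.3 to 61.7 CPM) than in control nuclei (3.15 to 21.9 CPM). These clusters split the same pooled libraries and are not independent repeats. Leaving out 4 OL clusters with over 70% of cKO nuclei, a choice made after seeing the data, gave a log2 difference of 1.68 ± 0.17, adjusted p = 0.0017 (edgeR). In the low part of OLs by maturation score Pde3a was 12.1 ± 4.12 CPM in control and 34.3 ± 3.4 CPM in cKO libraries, and in the high part 9.72 ± 3.15 CPM and 36.5 ± 14.3 CPM (SD, n = 4 each).

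Markers of other cells in the OL sums were read for the same libraries. The summed level of the 5 OPC markers was 284 to 373 CPM in control OLs and 259 to 272 CPM in OLs labelled cKO, that of 6 mural cell markers 7.37 to 13.2 and 7.25 to 14.97 CPM, that of 6 endothelial markers 13.0 to 23.1 and 14.7 to 21.9 CPM and that of 5 astrocyte markers 349.7 to 495 and 369.6 to 541 CPM. No marker of these lists was at 0. The OPC sums did not overlap between genotypes, and those of the other lists named so far did. The 5 pituitary markers summed to 51.8 to 1042 CPM in control OLs and 12.2 to 38.2 CPM in OLs labelled cKO, the 4 red blood cell markers to 1357 to 2638 and 582 to 1432 CPM and the 6 myeloid markers to 68.7 to 74.8 and 75.0 to 89.6 CPM, none of them with a marker at 0. The part of any of these lists in the result was not tested.

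Counted per nucleus, 1.10% ± 0.375 of control OLs and 3.41% ± 0.782 of OLs labelled cKO (SD, n = 4 each) held a Pde3a UMI after each nucleus was thinned to 1000 UMIs. The libraries were at 0.722%, 0.947%, 1.13% and 1.61% against 4.55%, 2.83%, 3.27% and 3.00%, without overlap. The exact permutation test gave p = 0.029 (two-sided, n = 4 and 4), the smallest value this design allows. These shares count part of the same UMIs that were summed above, so this p is no independent support for the edgeR call. Thinning left out 22 to 225 OLs per control library and 28 to 99 per library labelled cKO, and without it the shares were 2.69% ± 0.849 and 7.71% ± 1.76. Astrocytes thinned alike were at 5.34% ± 1.39 and 4.44% ± 0.584 (exact permutation p = 0.26, n = 4 and 4). Myeloid cells, counted without thinning, had 0 Pde3a UMIs in 603 control nuclei and 1 in the 764 nuclei labelled cKO.

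**Figure D4:**
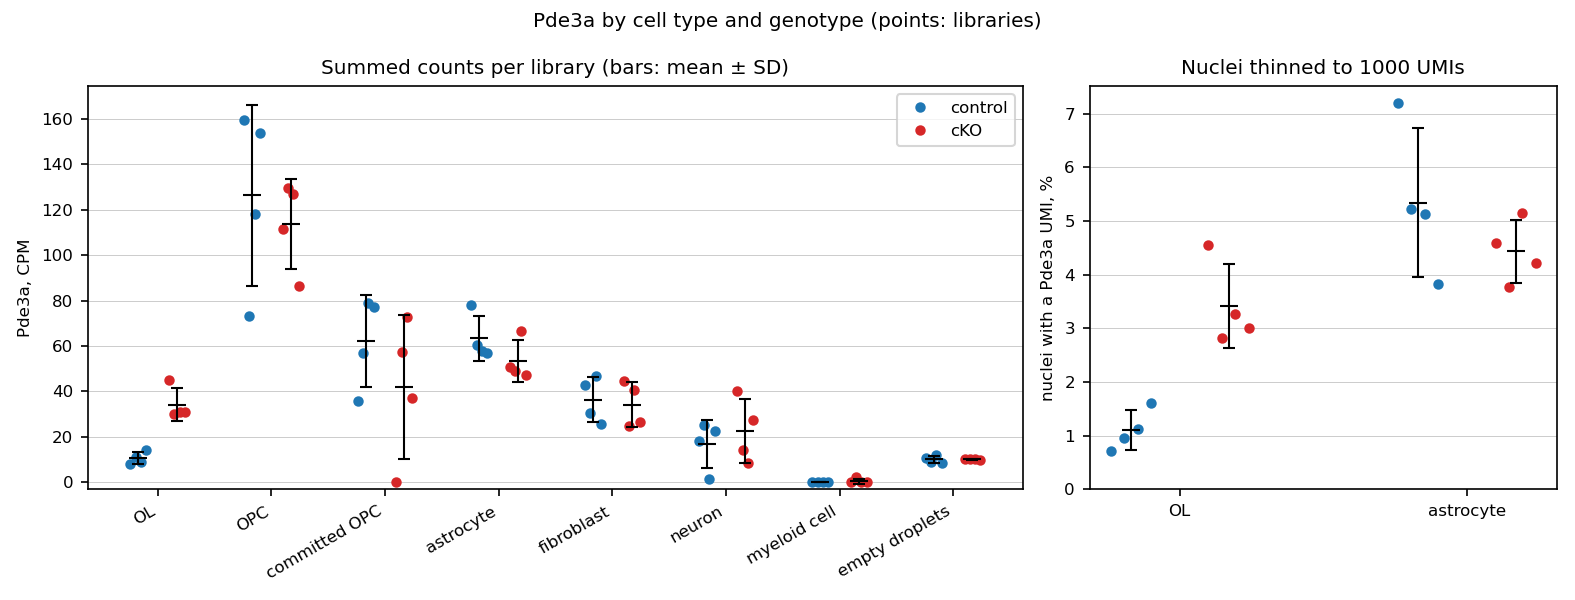
Pde3a by cell type and genotype, as CPM of summed counts per library (left) and as the percentage of nuclei with a Pde3a UMI after thinning to 1000 UMIs (right), with points for libraries and bars for mean ± SD. The 4 libraries labelled cKO sit between 30.03 and 45.1 CPM in OLs, all above the control libraries at 8.0 to 14.2 CPM, while the groups overlap in the other types shown.

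The other 9 members in OLs were not called. Pde4b was 6539.8 ± 664 CPM in control libraries and 5695 ± 538 CPM in those labelled cKO (SD, n = 4 each), with overlap (log2 -0.22 ± 0.12, adjusted p = 0.63, edgeR), and it was lower in cKO nuclei of all 16 OL clusters. The cluster sums pool libraries and carry no test. Pde4d was 84.1 ± 14.5 CPM and 117 ± 18.4 CPM (log2 0.45 ± 0.15, adjusted p = 0.44). Pde10a was 7.72, 7.54, 9.27 and 12.1 CPM in control libraries and 4.66, 4.40, 7.25 and 4.82 CPM in those labelled cKO, without overlap (log2 -0.80 ± 0.23, adjusted p = 0.36, edgeR). Pde8a was 456 to 489.8 CPM against 412 to 444 CPM, also without overlap (log2 -0.17 ± 0.09, adjusted p = 0.58). Pde3a, Pde8a and Pde10a were the 3 members of 10 whose libraries did not overlap in OLs, where 5.8% of all tested genes did not.

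In OPCs 0 of 10 members were called by edgeR or DESeq2 (1 with an unadjusted p under 0.05), and 0.277% of 6137 genes were by edgeR. That member was Pde8a, at 62.2, 47.4, 62.6 and 60.6 CPM in control libraries and 86.8, 99.4, 95.2 and 107 CPM in those labelled cKO (log2 0.71 ± 0.23, adjusted p = 0.32, edgeR). The groups did not overlap, as held for 1 of 10 members and for 4.2% of all genes. The genotype effect on Pde8a in OLs minus that in OPCs was a log2 of -0.86 ± 0.35 (SE; adjusted p = 1.0, edgeR). The 5 OL markers summed to 1850.1 to 2918 CPM in control OPCs and 2236 to 3448 CPM in OPCs labelled cKO, with overlap. Markers of 3 other sources did not overlap between genotypes in OPC sums. The 5 pituitary markers summed to 43.3 to 1648 CPM in control OPCs and 3.10 to 9.04 CPM in OPCs labelled cKO, the 4 red blood cell markers to 1599 to 2378 and 493 to 1313 CPM and the 5 retina markers, of which Crx, Rcvrn and Pou4f1 were at 0, to 79.3 to 132 and 155 to 183 CPM. Their part in the Pde8a values was not tested. Pde3a in OPCs was 126 ± 39.8 CPM and 114 ± 19.8 CPM (SD, n = 4 each; log2 -0.21 ± 0.22, adjusted p = 0.88, edgeR).

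In astrocytes 0 of 10 members were called by edgeR (0% of 14330 genes; 3 members with an unadjusted p under 0.05; 0 members by DESeq2). Pde10a was 109.9, 110.1, 151 and 68.9 CPM in control libraries and 81.1, 51.2, 64.1 and 62.5 CPM in those labelled cKO, with overlap (log2 -0.75 ± 0.20, adjusted p = 0.55, edgeR). Pde7b was 435 ± 52.2 CPM and 346 ± 49.4 CPM (log2 -0.33 ± 0.13, adjusted p = 0.60). In astrocyte sums the markers of committed OPCs and of pituitary did not overlap between genotypes. The 6 committed OPC markers summed to 1218 to 1338 CPM in control libraries and 987 to 1149.6 CPM in those labelled cKO, and the 5 pituitary markers to 18.8 to 1417 and 4.11 to 13.0 CPM, with no marker at 0, and their part in these values was not tested. Pde3a in astrocytes was 63.4 ± 9.94 CPM and 53.3 ± 9.08 CPM (log2 -0.26 ± 0.15, adjusted p = 0.70, edgeR).

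For the remaining types edgeR and DESeq2 called 0 members, and edgeR called 0% of 12408 genes in fibroblasts, 0% of 6876 in myeloid cells, 0% of 4356 in neurons, 0% of 2156 in endothelial cells and 0% of 2843 in committed OPCs. An unadjusted p under 0.05 was found for 1 member in neurons and 1 in committed OPCs, and for 0 in the other 3 types. Pde4d in neurons was 1163 ± 92.2 CPM and 799 ± 159 CPM (SD, n = 4 each; log2 -0.48 ± 0.21, adjusted p = 0.87, edgeR). Pde1c in committed OPCs was 126, 114, 127 and 109.9 CPM against 60.6, 86.3, 30.4 and 55.8 CPM (log2 -1.03 ± 0.33, adjusted p = 0.66, edgeR). Pde1a in fibroblasts was 1244 ± 211 CPM and 1270.5 ± 87.6 CPM (log2 0.02 ± 0.14), and Pde3b in myeloid cells was 928 ± 81.9 CPM and 873 ± 62.1 CPM (log2 -0.09 ± 0.13). Of the 63 pathway genes 45 were tested in OLs and 33 in OPCs, and edgeR called 0 in each, with medians of -0.08 and -0.06 beside 0.02 and 0.01 for all genes.

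**Figure D5:**
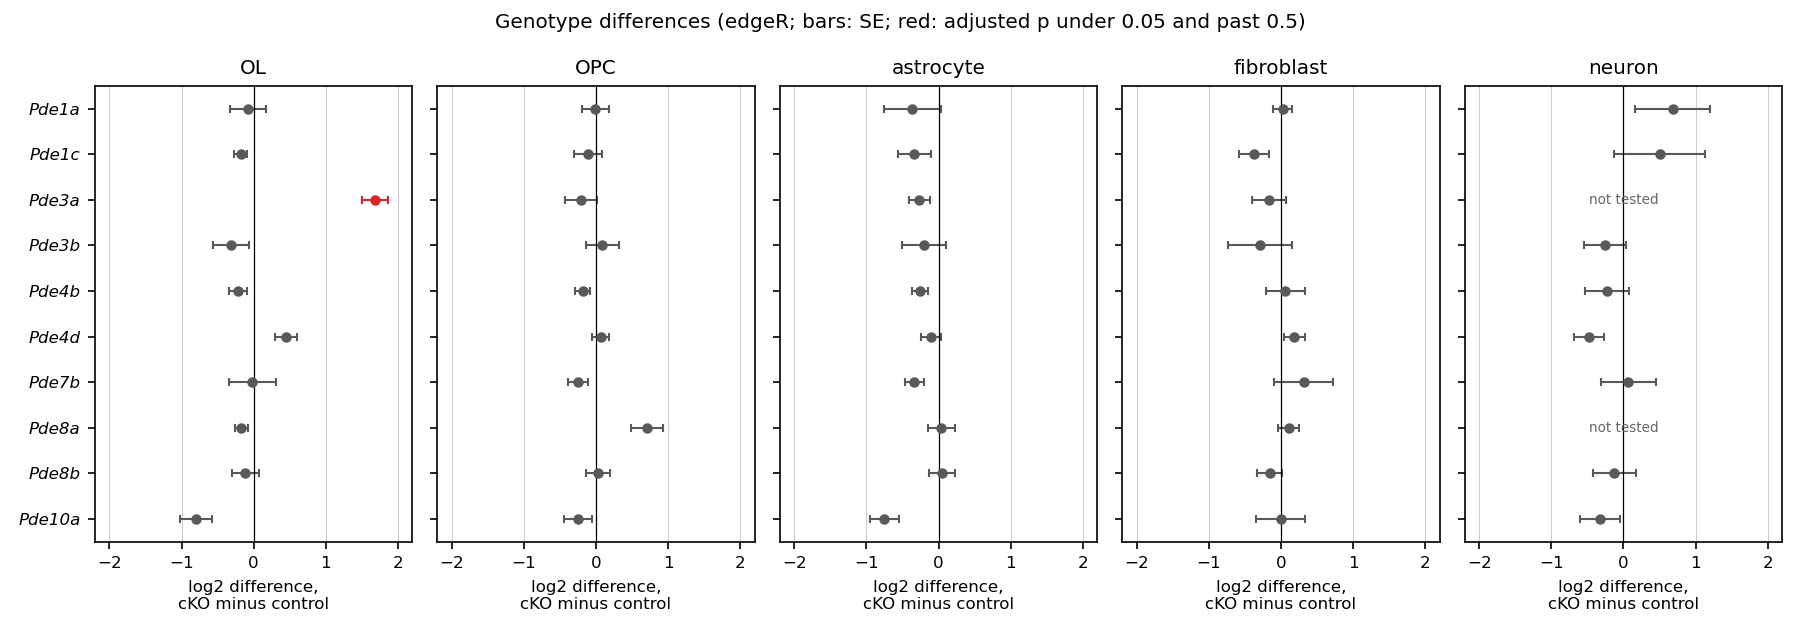
Log2 differences between libraries labelled cKO and control libraries for the 10 PDE genes by cell type, with bars of 1 SE and called genes in red (adjusted p under 0.05 and a log2 difference past 0.5). Pde3a in OLs, at 1.68, is the one red point.

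The last comparison tested whether the genotype effect itself differed between OLs and other types, in a single model over these types. The effect on Pde3a was larger in OLs than in astrocytes by a log2 of 1.96 ± 0.35 (SE; adjusted p = 0.0072, edgeR), the one gene called of 11771 tested (0.0085%). With the library as block it was 1.98 (adjusted p = 0.0022, limma), with 4 genes called. The call was lost without library 10 (log2 1.78, adjusted p = 0.14), 11 (1.94, adjusted p = 0.074) or 13 (1.95, adjusted p = 0.089) labelled cKO. Against fibroblasts the difference was 1.85 ± 0.39 (adjusted p = 0.17) and against OPCs 1.91 ± 0.42 (adjusted p = 0.24, edgeR), and with 0% of genes called in either these did not pass. Against myeloid cells, which had 0 Pde3a UMIs in the control libraries, no value is given, and 0% of genes were called there.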

How the data were processed

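Nuclei of 8 ON pools were profiled with 10x 3' snRNA-seq, and the authors deposited unfiltered matrices of raw UMI counts per gene and barcode, made with Cell Ranger 7.0.0 on GRCm39 per the submitters' processing notes. Whether intronic reads were counted is not given in the sources used here. From these counts, nuclei were called per library against empty droplets, kept with at least 200 genes, at most 5% mitochondrial UMIs and depths within 5 median absolute deviations, and freed of simulated-doublet neighbours by rank (0.8% of nuclei per 1000 nuclei). Clusters (scanpy 1.11.5, Leiden resolution 3) were named from fixed marker lists, with the PDE and pathway genes left out of clustering. The deposited counts were then summed per library and type (at least 10 nuclei and 1000 UMIs) and tested with edgeR 4.0.16 (quasi-likelihood, TMM, filterByExpr) in R 4.3.3, adjusted over all genes tested by Benjamini-Hochberg, with a gene called at an adjusted p under 0.05 and a log2 difference past 0.5. Intervals of levels are SDs over libraries, and small numbers of nuclei limit rare types most. Single shares were compared with an exact permutation test (SciPy 1.17.1).

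The members and lists were chosen with earlier results of these data known. The genes named are the 10 members, Piezo2 and Olig2, the 3 genes nearest each member and, of the pathway list, genes among the 8 called with the smallest adjusted p in a comparison. Tried as alternatives were DESeq2 1.42.0, scaling by library totals, no filter, subtraction of empty-droplet RNA, nuclei of at least 1000 UMIs, thinning to 1000 UMIs, the library as a block (limma 3.58.1 for the interaction) and each library left out. Cell types and OL parts of a library come from the same pooled mice, so the library pairs them. Their deviations from group means went together most for OLs and astrocytes of the same library (mean correlation 0.547, against -0.180 for those of other libraries). The mean was 0.518 for the low and high parts of OLs, 0.272 for OLs and OPCs and 0.013 for committed OPCs and endothelial cells. Sequences are RefSeq promoters, matched to GRCm39. The comparison of OLs between genotypes was first run on simulated counts with edgeR and DESeq2.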

Additional observations from a re-analysis of the deposited data

Results flagged for a closer look

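In 179 groups of 4 libraries, 19 held a library far from the other three, by a gap to the nearest one past Dixon's 95% critical value, and chance gives about 1 in 20. For Pde3a in OLs labelled cKO the gap was 0.935 of the range (library 10 at 45.1 CPM, the next at 31.0 CPM). In endothelial cells, which held few nuclei, it was 0.918 for Pde3a labelled cKO (library 11, 215 CPM, next 55.5 CPM), 0.833 for Pde3a in control (library 1, 364 CPM, next 90.1 CPM) and 0.891 for Pde1a in control (library 2, 370 CPM, next 72.1 CPM). In myeloid cells it was 1 for Pde3a labelled cKO (library 11, 2.25 CPM, which is 1 UMI, the others at 0), 0.877 for Pde3b in control (library 4, 806 CPM, next 956 CPM) and 0.837 for Pde4b labelled cKO (library 12, 123 CPM, next 206 CPM).

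In neurons the gap was 0.875 for Pde1a in control (library 2, 690 CPM, next 239 CPM) and 0.837 for Pde7b labelled cKO (library 11, 556 CPM, next 214 CPM). In fibroblasts it was 0.976 for Pde1c labelled cKO (library 10, 47.5 CPM, next 43.3 CPM), 0.856 for Pde1c in control (library 4, 29.9 CPM, next 63.8 CPM) and 0.913 for Pde8a labelled cKO (library 12, 77.3 CPM, next 63.5 CPM). In the OL lineage it was 0.842 for Pde7b in OLs labelled cKO (library 13, 6.56 CPM, next 3.85 CPM), 0.851 for Pde10a in OLs labelled cKO (library 12, 7.25 CPM, next 4.82 CPM), 0.871 for Pde8a in control OPCs (library 2, 47.4 CPM, next 60.6 CPM) and 0.857 for Pde8b in committed OPCs labelled cKO (library 13, 65.1 CPM, next 170 CPM). In astrocytes labelled cKO it was 0.847 for Pde8b (library 10, 87.1 CPM, next 52.1 CPM), and in control empty droplets 0.903 for Pde1c (library 3, 50.7 CPM, next 41.5 CPM) and 0.848 for Pde10a (library 3, 28.6 CPM, next 13.6 CPM).

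The genotype effect on Pde3a differed between OLs and astrocytes by a log2 of 1.96, in a test of the difference itself. That call was lost without library 10, 11 or 13 labelled cKO, and the tests against fibroblasts and OPCs did not pass.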

How the results depend on the processing

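The 15 calls by cell type of Pde3a, Pde8b and Pde10a, each with a type at 0, are left out here. For the other 73 calls, 880 of 909 alternative values kept the call, 29 lost it and 0 reversed. The 44 calls by cell type numbered 39 (without control library 4) to 46 (with no filter), and the 27 along the lineage 19 to 28, with the lowest after thinning, where fewer members passed the filter. Scaling by library totals moved the median over all genes for OLs by cell type from 0.17 to -0.23 on the log2 scale. By maturation score, where 0 members were called, 1 (Pde4d) was called with no filter and with the library as replicate block, and 0 to 1 with each library left out. All genes called by score numbered 173, against 451 of 12147 with the block, 281 with no filter, 81 after thinning and 50 to 140 with each library left out. Between genotypes 1 member was called, and 2 with no filter (Pde10a in astrocytes besides Pde3a in OLs). The 12 genes called in OLs became 51 with DESeq2 and 42 with no filter. Counts of members under an alternative stand without the share of all genes called in that fit where none is printed. For the difference of genotype effects 0 to 2 members were called with each library left out, against 1. The difference in the share of OLs with a Pde3a UMI, 2.31 percentage points, was 1.93 to 2.51 with each library left out, where the exact permutation p of 0.0571 is the smallest that 3 against 4 libraries can give. The block changed no other call by cell type or along the lineage, and the interaction kept Pde3a. No paired analysis was possible between genotypes because the libraries share no replicate numbers. Leaving out clusters mostly from 1 library was not run, since 0 of 45 named clusters were such. Leaving out OL clusters rich in cKO nuclei was chosen after seeing the data. The cause of the other changes was not tested. Small numbers of nuclei per library limit mural cells (4 to 12), T cells (4 to 26) and committed OPCs (12 to 32) most.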
